A study of Homo sapiens with 6 samples.

Results

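The intracellular partners and the nectins of adherens junctions were followed across 3 prostate cancer cell lines. The set was 10 genes: the catenins CTNNB1 (β-catenin), JUP (plakoglobin, also called γ-catenin), CTNNA1 (αE-catenin), CTNNAL1 (α-catulin) and CTNND1 (p120-catenin), the actin linkers VCL (vinculin) and AFDN (afadin), and the nectins NECTIN1, NECTIN2 and NECTIN3. A probe set was taken where the platform annotation gave it exactly one symbol and that symbol was a member. This gave 9 of the 10 genes, out of 19775 genes with such a probe set, and 29 probe sets. CTNND1 had 4 probe sets, each annotated with a second symbol, and its level is not analysed here.

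PC-3 is an established prostate cancer line that came from a metastasis in bone. TEM4-18 and TEM2-5 are cells recovered from PC-3, in separate experiments, after passage through a monolayer of human lung microvascular endothelial cells. Both TEM lines thus derive from PC-3, no treatment is named for any line, all grew in the same medium with serum, and each was measured on 2 arrays. Each TEM line is a single isolate, and whether the paired arrays of a line stand for different cultures is not given in the labels. The p-values therefore cover array-to-array spread only, and that spread may be technical.

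In an adherens junction the extracellular part of a classical cadherin binds a cadherin of the next cell. Its cytoplasmic tail binds β-catenin or plakoglobin in a mutually exclusive way, and p120-catenin at a separate place. α-Catenin joins β-catenin or plakoglobin to actin and, under tension, recruits vinculin. Nectins are immunoglobulin-like adhesion proteins of the same junctions that bind afadin, which is itself an actin-binding protein. β-Catenin also acts in the nucleus with TCF/LEF factors in Wnt signalling. PC-3 is known for a homozygous deletion at CTNNA1.

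The median signal of an array lay between 267 and 317. The correlation of log2 signals was 0.976, 0.979 and 0.980 within the 3 lines and 0.923 to 0.972 between them. Of 7 epithelial marker genes, all were lower in both TEM lines than in PC-3. The difference passed the test described below for 7 in TEM4-18 and 6 in TEM2-5. Over all genes tested, 16% and 10.1% passed it as lower. The summed epithelial signal was 186659 to 193957 in PC-3, 64811 to 72330 in TEM4-18 and 80623 to 88231 in TEM2-5. Of 14 endothelial marker genes, 10 lay below the filter on dim probe sets, among them CDH5 (23.9 to 201) and VWF (40.2 to 301). The summed endothelial signal was 2776 to 3086, 4051 to 5216 and 4494 to 4715, in PC-3, TEM4-18 and TEM2-5. Of the 4 tested endothelial markers, KDR (2.40 and 2.29 log2 units) and ROBO4 (0.73 and 0.78) passed the test as higher in TEM4-18 and TEM2-5. Over all genes tested, 13.3% and 8.98% passed as higher. ROBO4 passed under 8 of 14 alternative processings in each line. Those under which it did not include leaving out the first PC-3 array (0.49 and 0.54), using no filter, and averaging its probe sets (0.34 and 0.45). ESAM passed in TEM4-18 (1.40) and not in TEM2-5 (0.71), and PECAM1 in neither (-0.40 and 0.08), although its averaged probe sets were lower in TEM4-18 (-1.02, limma adjusted p = 0.0237). KLK3, which PC-3 is known hardly to express, read 770 to 1301. The part of these markers in the results below was not tested.

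Signals are linear array units, and a signal can be set against the same probe set on other arrays but not against another gene's. Fold changes are differences of log2(signal + 51.8), which understates changes of dim probe sets, and are given with their standard error (SE). A difference was called where limma's moderated test, two-sided and adjusted by the Benjamini-Hochberg method over the 32768 probe sets with a mean signal above 174, gave an adjusted p under 0.05. Of the 29 member probe sets 18 passed that filter, with at least 1 for each of the 9 genes, and each gene was counted by its brightest probe set. Because both comparisons with PC-3 share the same PC-3 arrays, their values are given side by side only.

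In TEM4-18, 4 of the 9 genes were called against PC-3: JUP and AFDN fell, and VCL and NECTIN3 rose. Over all 13621 genes tested, 29.3% were called in that comparison, 13.3% higher and 16% lower. In TEM2-5, 4 of the 9 were called, with JUP and AFDN lower and CTNNAL1 and NECTIN3 higher, beside 19% of all genes, 8.98% higher and 10.1% lower. Between TEM4-18 and TEM2-5 JUP alone was called, lower in TEM4-18, beside 2.75% of all genes, 0.492% higher and 2.26% lower. Over all probe sets tested, the called shares of the 3 comparisons were 25.6%, 16.3% and 1.78%. Without the trend of the spread with signal in limma, 2 calls remained in TEM4-18 (JUP and AFDN), 1 in TEM2-5 (JUP) and 0 between the TEM lines. With 9 genes, these counts do not set the group apart from its background. The median log2 fold change of the 9 genes was 0.17 in TEM4-18 and 0.11 in TEM2-5, and that of all genes was -0.04 and -0.02. Ordered by the distance between the highest and the lowest of the 3 line means on the log2 scale, JUP came first with 2.55, followed by AFDN with 0.77, NECTIN3 with 0.50, NECTIN1 with 0.49, CTNNA1 with 0.37, CTNNAL1 with 0.28, VCL with 0.26, NECTIN2 with 0.20 and CTNNB1 with 0.10.

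**Figure D1:**
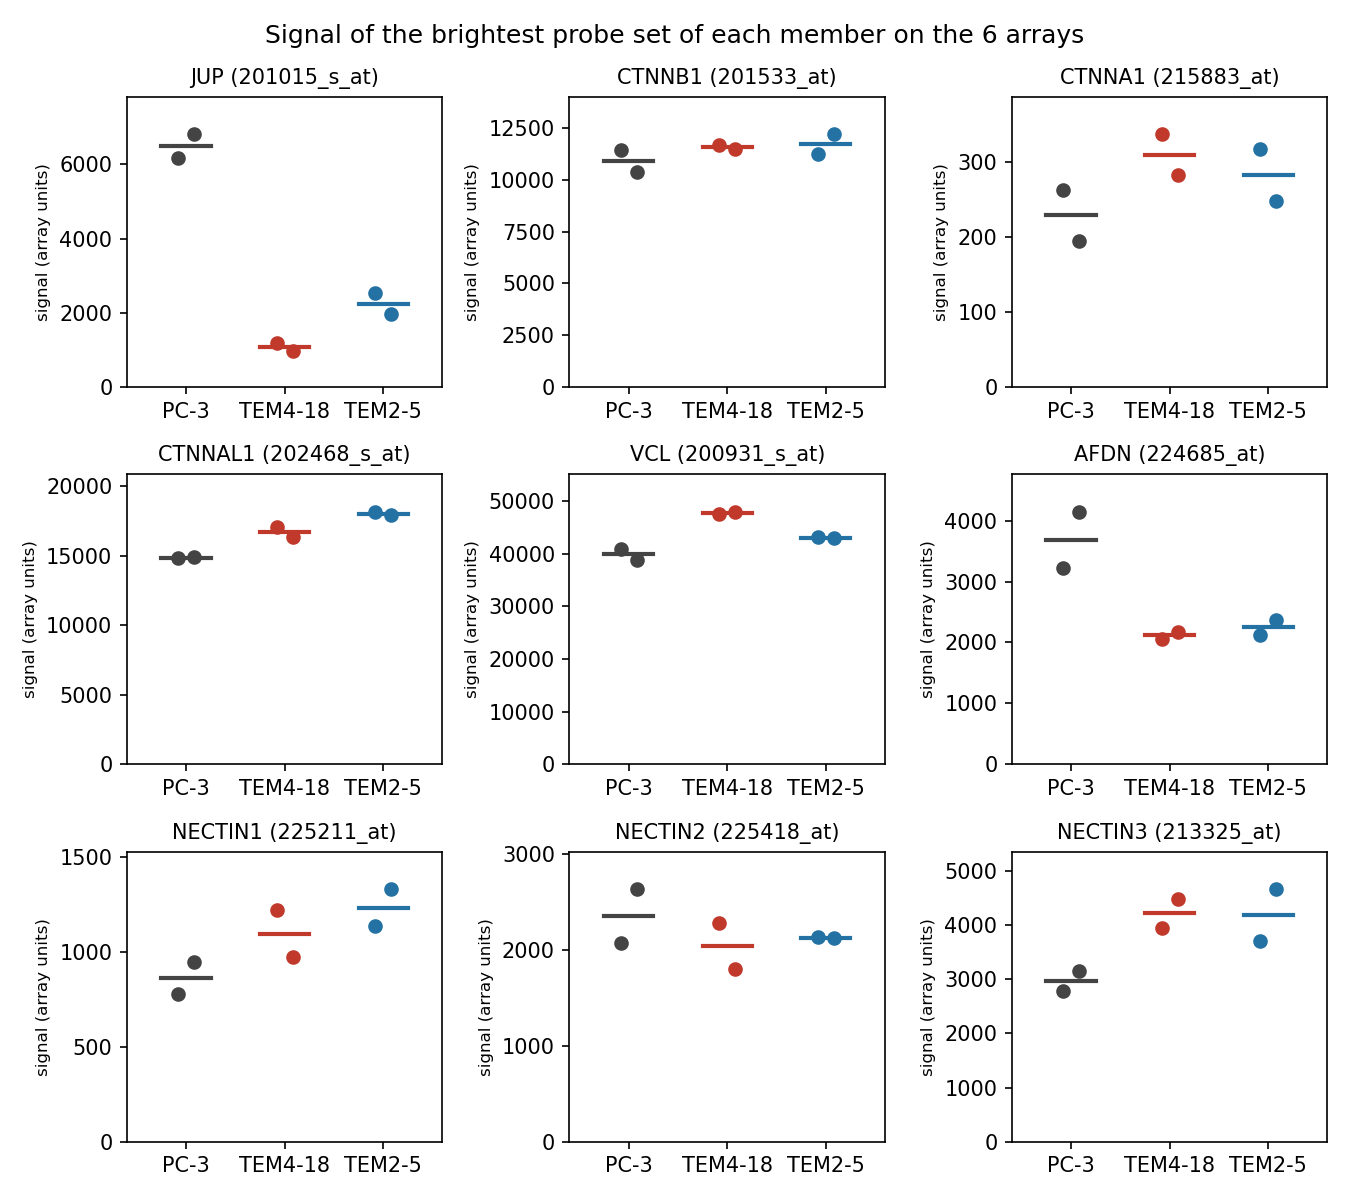
Signal in array units (vertical axes, each starting at 0) of the brightest probe set of each of the 9 measured genes. Points are single arrays and bars are the means of the 2 arrays of a line; the JUP points of the 3 lines do not overlap, and those of CTNNB1 and NECTIN2 lie close together in all lines.

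Plakoglobin, which takes the place of β-catenin on cadherin tails and is also a component of desmosomes, showed the widest change of the set. The single JUP probe set (201015_s_at) read 6180 and 6811 on the PC-3 arrays, 1186 and 961 on the TEM4-18 arrays and 2533 and 1966 on the TEM2-5 arrays. PC-3 was high on both arrays, TEM2-5 lay between, TEM4-18 was low, and no values of different lines overlapped. The mean signal was 6496 ± 446 (SD, n = 2) in PC-3, 1074 ± 159 in TEM4-18 and 2249 ± 400 in TEM2-5, that is 6.05-fold lower in TEM4-18 and 2.89-fold lower in TEM2-5. In limma's fit JUP fell in TEM4-18 by 2.55 on the log2 scale (SE 0.15, 95% confidence interval -2.9 to -2.2, adjusted p = 1.2e-06) and in TEM2-5 by 1.52 (SE 0.15, interval -1.9 to -1.2, adjusted p = 0.000113). Fewer cells with the transcript and less transcript per cell cannot be told apart in these bulk cultures, for JUP or for the genes that follow. Both calls held under every alternative processing tried, with differences from -2.69 to -2.39 in TEM4-18 and from -1.70 to -1.34 in TEM2-5.

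JUP was also lower in TEM4-18 than in TEM2-5, by a log2 difference of -1.03 (SE 0.15, interval -1.4 to -0.69, limma adjusted p = 0.00642). This call rested on 4 arrays and was lost without the first TEM2-5 array, where the difference was -0.85 (limma adjusted p = 0.0768), and without the trend of the spread with signal, where it was -1.03 (limma adjusted p = 0.167).

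The promoters of JUP and AFDN are shown because both genes fell in both TEM lines and because, of the genes searched, these alone held the E-box CACCTG, the letters bound by the zinc-finger repressors SNAI and ZEB. The windows run from 250 bases before to 50 bases after an annotated start, on the gene's own strand, in RefSeq GRCh38.p14, and capitals mark CACCTG or its reverse complement CAGGTG. The JUP window lies at chr17:41785927-41786226 on the minus strand, and the AFDN window at chr6:167827385-167827684 on the plus strand. Each holds at its end the first transcribed bases from the annotated start that it covers.
JUP promoter: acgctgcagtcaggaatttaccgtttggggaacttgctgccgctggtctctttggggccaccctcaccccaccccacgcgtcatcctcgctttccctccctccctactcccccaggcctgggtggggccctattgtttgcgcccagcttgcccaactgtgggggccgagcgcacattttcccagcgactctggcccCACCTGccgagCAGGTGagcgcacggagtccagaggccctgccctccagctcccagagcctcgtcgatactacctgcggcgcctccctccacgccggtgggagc
AFDN promoter: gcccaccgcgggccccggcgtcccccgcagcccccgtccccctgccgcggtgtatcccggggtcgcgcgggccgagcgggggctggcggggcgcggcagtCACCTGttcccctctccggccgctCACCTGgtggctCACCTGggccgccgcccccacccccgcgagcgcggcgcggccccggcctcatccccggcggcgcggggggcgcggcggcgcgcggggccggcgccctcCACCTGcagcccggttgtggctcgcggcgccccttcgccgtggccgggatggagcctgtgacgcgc
In JUP the letters begin 54 bases before the start on the printed strand and 43 bases before it on the other. The printed JUP window covers the downstream of the annotated JUP starts searched. The window of the upstream start, at chr17:41786662-41786961, held no copy. In AFDN 4 copies, all on the printed strand, begin 150, 126, 114 and 16 bases before the start. RefSeq windows were found for 8 of the 10 genes (12 windows), and those of the other 6 held none. Of all 35116 windows of 300 bases, 7231 (20.6%) held the letters at least once and 59 (0.168%) held 4 or more. Of the 8 genes with a window 2 held the letters, too few genes to set the group apart from the 20.6%. The AFDN window is 83.7% G or C and the JUP window 66.7%. The arrays do not measure binding at these places, and a match of letters is a description of the sequence only. Any link of the letters to the falls of JUP and AFDN was not tested.

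β-Catenin, the other catenin that binds cadherin tails and the one that enters the nucleus in Wnt signalling, kept a similar signal in the 3 lines on its brightest probe set. CTNNB1 201533_at read 11458 and 10367 in PC-3, 11710 and 11486 in TEM4-18, and 11240 and 12201 in TEM2-5. The TEM2-5 values overlap those of PC-3, and the TEM4-18 values lie just above them. The log2 difference was 0.09 in TEM4-18 (interval -0.096 to 0.27, limma adjusted p = 0.496) and 0.10 in TEM2-5 (interval -0.082 to 0.29, limma adjusted p = 0.466).

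A second probe set, 223679_at, read 1738 and 1596 in PC-3, 1670 and 1536 in TEM4-18, and 1370 and 1321 in TEM2-5, with differences of -0.06 (limma adjusted p = 0.813) and -0.30 (limma adjusted p = 0.169). The third, 1554411_at, read 678 and 458 in PC-3, 884 and 985 in TEM4-18, and 781 and 969 in TEM2-5. It was the only one of the 3 to be called, higher in TEM4-18 by 0.69 (SE 0.22, limma adjusted p = 0.0384), with 0.60 in TEM2-5 (limma adjusted p = 0.0919). Without a filter and without the trend it was not called in TEM4-18 (limma adjusted p = 0.0893 and 0.0938). The TEM4-18 call was lost without the second PC-3 array (0.43, limma adjusted p = 0.217), without either TEM4-18 array (0.77 and 0.62, limma adjusted p = 0.0855 and 0.166) and without the second TEM2-5 array (0.69, limma adjusted p = 0.0524), and the TEM2-5 difference was called without the first PC-3 array (0.85, limma adjusted p = 0.0388).

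**Figure D2:**
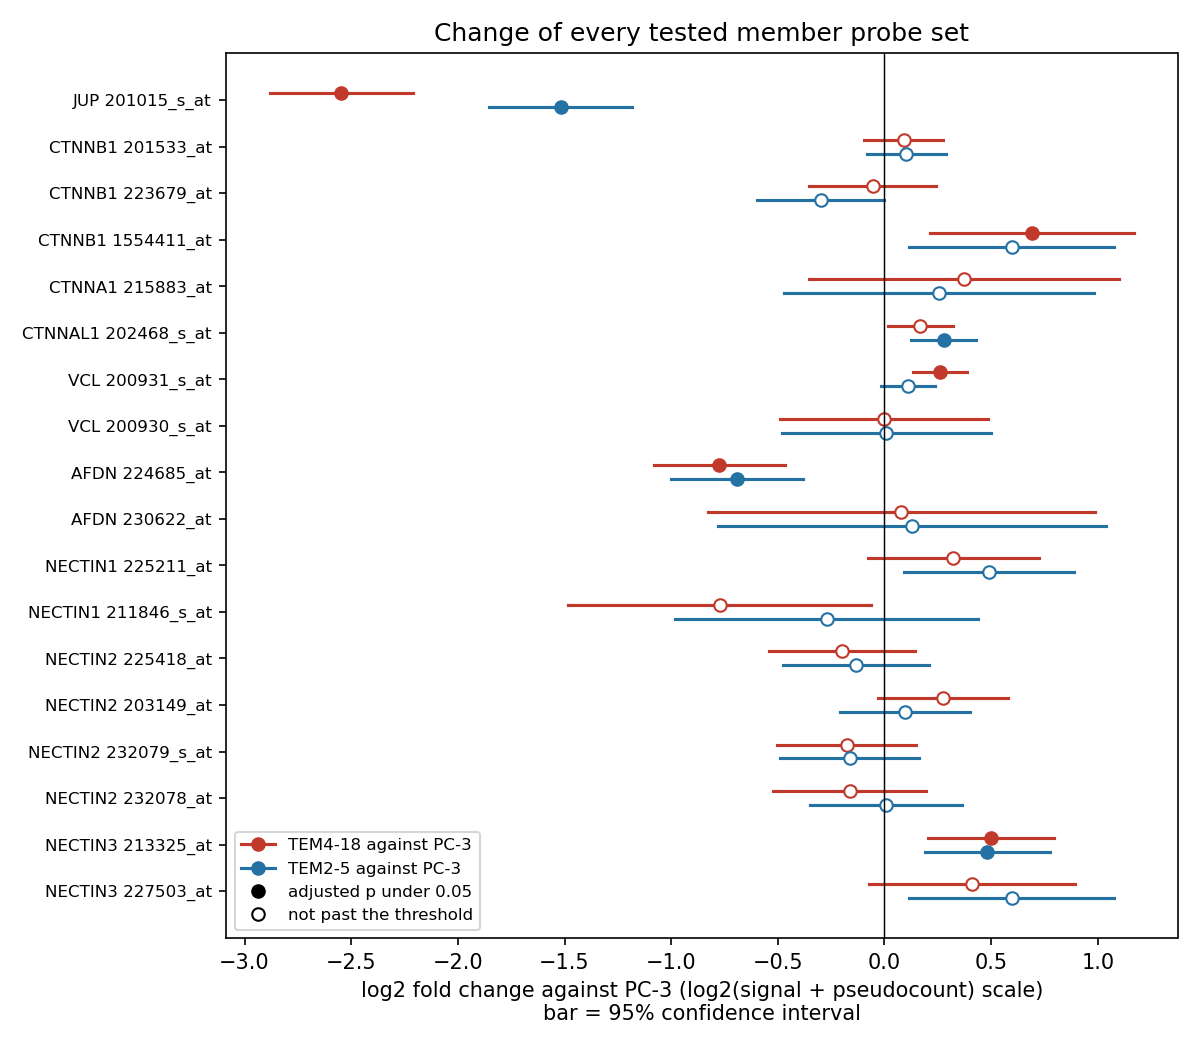
Log2 fold change against PC-3 (horizontal axis, on the log2(signal + 51.8) scale) of the 18 tested probe sets, in TEM4-18 and in TEM2-5. Points are limma estimates, bars are 95% confidence intervals, and filled points have an adjusted p under 0.05; JUP lies farthest from 0, at -2.55 and -1.52, and probe sets of CTNNB1, NECTIN1 and AFDN differ from each other.

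αE-Catenin, the protein that couples the cadherin–catenin complex to actin, had 4 dim probe sets, left untested, and 1 brighter probe set that was not called in any comparison. The 4 dim probe sets had means under the filter, with signals from 7.98 to 186 and with 18 of their 24 values under the pseudocount of 51.8. Probe set 200764_s_at read 26.3 and 186 in PC-3, 26.6 and 12.5 in TEM4-18, and 147 and 96.3 in TEM2-5. Probe set 1558214_s_at read 19.5 and 7.98, 55.4 and 44.3, and 112 and 12.5 in the same order, and 200765_x_at and 210844_x_at reached at most 81.5 and 42.0. The values of 1 line spread as widely as those of different lines, so no order of the lines can be read from them. The brightest, 215883_at, read 263 and 195 in PC-3, 338 and 283 in TEM4-18, and 318 and 249 in TEM2-5, not far above the filter of 174. Its log2 difference was 0.37 in TEM4-18 (interval -0.36 to 1.1, limma adjusted p = 0.465) and 0.26 in TEM2-5 (limma adjusted p = 0.663). The files used here hold no detection call, and a signal at this level does not tell a low transcript from none.

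Genes on either side of CTNNA1 on chromosome 5 were taken from those that passed the filter. In the RefSeq gene order the nearest tested genes before it were CDC25C, FAM53C, KDM3B, ETF1 and HSPA9, and those after it were MATR3, SNHG4, PAIP2, SPATA24 and DNAJC18. HSPA9, which encodes the mitochondrial chaperone mortalin, read 16433 to 20985 over the 6 arrays, and MATR3, which encodes a nuclear matrix protein, 2322 to 2954. SNHG4 and DNAJC18 were the dimmest of the 10, at 399 to 636 and 466 to 780. Between HSPA9 and MATR3 the table lists 15 genes, of which 3 had a single-symbol probe set: CTNNA1, LRRTM2 and SIL1. LRRTM2, a synaptic adhesion gene within CTNNA1, read 29.9 and 25.9 in PC-3, 103 and 35.0 in TEM4-18, and 8.06 and 50.9 in TEM2-5. SIL1, a nucleotide exchange factor of the endoplasmic reticulum, read 92.1 and 78.5 in PC-3, 86.6 and 38.8 in TEM4-18, and 86.9 and 90.5 in TEM2-5. Both lay below the filter in every line, and both were named after their values were seen. Among the 10 flanking genes, PAIP2, a translational repressor, rose in TEM4-18 by 0.47 and in TEM2-5 by 0.48 (limma adjusted p = 0.00347 and 0.00497). HSPA9 fell in TEM4-18 by 0.26 (limma adjusted p = 0.0277), and the other 8 were not called in either line. Over all genes tested, 29.3% were called in TEM4-18 and 19% in TEM2-5.

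**Figure D3:**
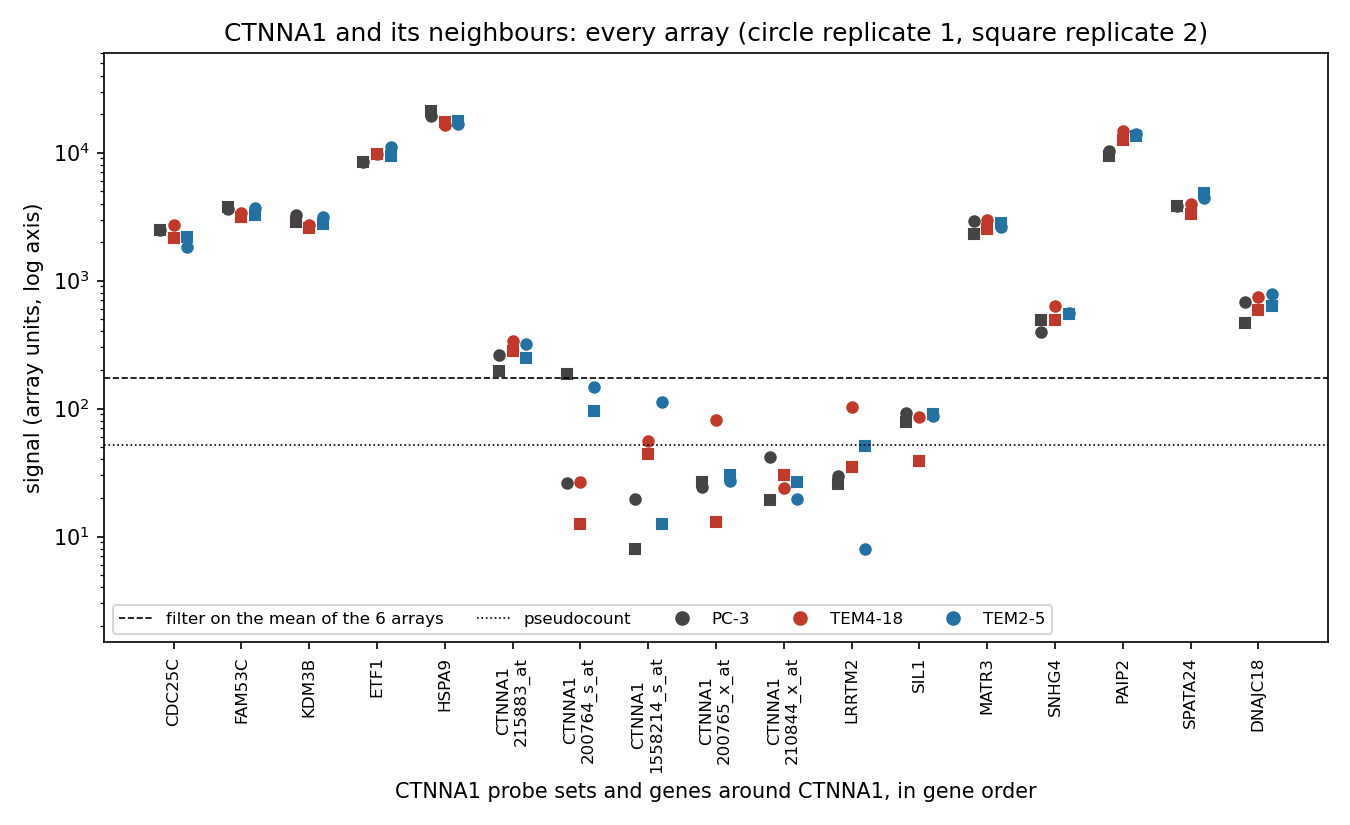
Signal on a log axis of the 5 CTNNA1 probe sets and of genes around CTNNA1 in gene order, on all 6 arrays; the dashed line is the filter of 174, which applies to the mean of the 6 arrays, and the dotted line is the pseudocount of 51.8. The 4 dim CTNNA1 probe sets, LRRTM2 and SIL1 have means below the filter, and the 10 flanking genes lie above it on every array.

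α-Catulin, a relative of α-catenin and vinculin, and vinculin itself were each called in 1 of the TEM lines, with changes of under 0.3 log2 units. CTNNAL1 202468_s_at read 14846 and 14906 in PC-3, 17052 and 16392 in TEM4-18, and 18164 and 17910 in TEM2-5. The lines did not overlap, and the 2 PC-3 arrays lay closest together. CTNNAL1 rose in TEM2-5 by 0.28 (SE 0.07, interval 0.13 to 0.43, limma adjusted p = 0.0201), and the TEM4-18 difference of 0.17 was not called (limma adjusted p = 0.101). The TEM2-5 call was lost without any single PC-3 or TEM2-5 array, with limma adjusted p from 0.0720 to 0.104, and without the trend (limma adjusted p = 0.173). The difference between the TEM lines was -0.11 (limma adjusted p = 0.594).

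VCL 200931_s_at read 40884 and 38847 in PC-3, 47513 and 47948 in TEM4-18, and 43139 and 42940 in TEM2-5. Both TEM lines lay above both PC-3 arrays. VCL rose in TEM4-18 by 0.26 (SE 0.06, interval 0.13 to 0.39, limma adjusted p = 0.00708) and differed by 0.11 in TEM2-5 (interval -0.016 to 0.24, limma adjusted p = 0.233). The call was lost without the second PC-3 array (0.22, limma adjusted p = 0.0518), and without the trend (limma adjusted p = 0.153), and averaging both VCL probe sets gave 0.13 (limma adjusted p = 0.261). With quantile normalization 200931_s_at was also called higher in TEM2-5 (0.17, limma adjusted p = 0.0279). The other probe set, 200930_s_at, read 460 to 474 on all 6 arrays, with a difference of 0.00 in TEM4-18 (interval -0.49 to 0.49).

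Afadin, the scaffold that ties nectins to actin, fell in both TEM lines on its brightest probe set. AFDN 224685_at read 3222 and 4142 in PC-3, 2054 and 2179 in TEM4-18, and 2125 and 2368 in TEM2-5. Both PC-3 arrays lay above all 4 TEM arrays, and the TEM lines overlapped each other. The mean was 3682 ± 650 (SD, n = 2) in PC-3, 2116 ± 88.2 in TEM4-18 and 2247 ± 172 in TEM2-5, which is 1.74-fold and 1.64-fold lower. AFDN fell by 0.77 on the log2 scale in TEM4-18 (SE 0.14, interval -1.1 to -0.47, limma adjusted p = 0.00215) and by 0.69 in TEM2-5 (SE 0.14, interval -1.0 to -0.38, limma adjusted p = 0.00719). The TEM2-5 call was lost without the second PC-3 array (-0.51, limma adjusted p = 0.0601) and without the first TEM2-5 array (-0.61, limma adjusted p = 0.0606), and without the trend (-0.69, limma adjusted p = 0.0711).
The other AFDN probe sets gave no call. The second tested one, 230622_at, read 242 and 195 in PC-3, 340 and 155 in TEM4-18, and 206 and 285 in TEM2-5, with differences of 0.08 and 0.13 (limma adjusted p = 0.919 and 0.877). The remaining 5 lay below the filter. Of these, 214939_x_at read 287 and 175 in PC-3, 150 and 172 in TEM4-18, and 42.9 and 85.1 in TEM2-5, with PC-3 highest. In 238871_at PC-3 was lowest instead, at 89.9 and 106, with 186 and 189 in TEM4-18 and 131 and 125 in TEM2-5. Probe set 215904_at read 152 and 90.4, 6.40 and 79.5, and 6.76 and 8.38 in the same order, and 229775_s_at and 208512_s_at lay between 14.3 and 115. These 5 were not tested. With all 7 AFDN probe sets averaged, the 5 below the filter included, AFDN was not called. The differences were then -0.22 and -0.35 (limma adjusted p = 0.568 and 0.383).

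Among the nectins, NECTIN3 was the 1 whose brightest probe set was called. Nectins bind each other across the cell gap in like and unlike pairs, and NECTIN1 with NECTIN3 is a strong unlike pair. NECTIN3 213325_at read 2781 and 3147 in PC-3, 3941 and 4479 in TEM4-18, and 3705 and 4653 in TEM2-5. All 4 TEM values lay above both PC-3 values. NECTIN3 rose by 0.50 in TEM4-18 (SE 0.13, interval 0.2 to 0.79, limma adjusted p = 0.0186) and by 0.48 in TEM2-5 (SE 0.13, interval 0.19 to 0.78, limma adjusted p = 0.0321). The second probe set, 227503_at, read 1729 and 1022 in PC-3, 1805 and 1766 in TEM4-18, and 1797 and 2314 in TEM2-5, and was not called, with differences of 0.41 and 0.60 (limma adjusted p = 0.206 and 0.0925). The 213325_at calls depended on single arrays and on the fit. Both were lost without the trend (limma adjusted p = 0.103 and 0.151), the TEM4-18 call with probe sets averaged (0.45, limma adjusted p = 0.0533) and the TEM2-5 call without a filter (limma adjusted p = 0.0622). In TEM4-18 the call was lost without the first PC-3 array (0.41, limma adjusted p = 0.104) or the second TEM4-18 array (0.41, limma adjusted p = 0.120), and in TEM2-5 without either PC-3 array (0.39 and 0.57, limma adjusted p = 0.150 and 0.0524) or the second TEM2-5 array (0.32, limma adjusted p = 0.238). Without the first PC-3 array the second probe set was called in both lines, with 0.78 (limma adjusted p = 0.0159) and 0.96 (limma adjusted p = 0.00937).

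The 2 tested NECTIN1 probe sets differed in sign. NECTIN1 225211_at read 779 and 947 in PC-3, 1218 and 971 in TEM4-18, and 1134 and 1328 in TEM2-5, with differences of 0.32 (limma adjusted p = 0.23) and 0.49 (interval 0.091 to 0.89, limma adjusted p = 0.0957). NECTIN1 211846_s_at read 351 and 380 in PC-3, 194 and 191 in TEM4-18, and 244 and 351 in TEM2-5, with differences of -0.77 (interval -1.5 to -0.062, limma adjusted p = 0.107) and -0.27 (limma adjusted p = 0.633). Neither probe set was called in either line, except that 211846_s_at was in TEM4-18 without the trend (limma adjusted p = 0.043), and no direction is given for the gene. The other 2 NECTIN1 probe sets lay below the filter: 208455_at read 154 and 158 in PC-3, 91.0 and 107 in TEM4-18, and 222 and 8.88 in TEM2-5, and 211845_at read 9.95 to 27.6.

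NECTIN2, also called CD112 and a ligand of the immune receptors DNAM-1 and TIGIT, had 4 tested probe sets and none was called. The brightest, 225418_at, read 2077 and 2631 in PC-3, 2281 and 1803 in TEM4-18, and 2132 and 2124 in TEM2-5, and the lines overlapped. Its differences were -0.20 (limma adjusted p = 0.395) and -0.13 (limma adjusted p = 0.626). Probe set 203149_at differed by 0.28 in TEM4-18 (limma adjusted p = 0.178), 232079_s_at by -0.18 (limma adjusted p = 0.433) and 232078_at by -0.16 (limma adjusted p = 0.521).

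Apart from JUP, no gene of the set was called between TEM4-18 and TEM2-5. The differences of the other 17 tested probe sets ran from -0.50 in NECTIN1 211846_s_at (interval -1.2 to 0.21, limma adjusted p = 0.604) to 0.24 in CTNNB1 223679_at (interval -0.054 to 0.54, limma adjusted p = 0.526). For the brightest probe sets of VCL, AFDN and NECTIN3 they were 0.15 (interval 0.022 to 0.28, limma adjusted p = 0.306), -0.08 (interval -0.39 to 0.23, limma adjusted p = 0.88) and 0.02 (interval -0.28 to 0.31, limma adjusted p = 0.98). These intervals allow differences between the isolates that are as large as some of the called changes from PC-3.

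The genes whose 6 arrays lay closest to each of the widest-ranging members, after subtraction of the PC-3 mean, are given by the root mean square difference in log2 units. For JUP they were NNMT (0.10), which encodes nicotinamide N-methyltransferase, PCDH1 (0.12), which encodes protocadherin 1, an adhesion protein, and STEAP4 (0.14), a metalloreductase gene. For AFDN they were DRC3 (0.06), EPS8L2 (0.07), an actin regulator, and USP22 (0.08), a ubiquitin protease gene. For NECTIN3 they were ANTXR1 (0.05), which encodes an anthrax toxin receptor that binds collagen, TAF9B (0.05) and THAP2 (0.06). DRC3 and THAP2 were not called in either TEM line. With all probe sets of a gene averaged, ANTXR1 changed sign in both lines (-0.50 and -0.33) and USP22 in TEM4-18 (0.06).

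**Figure D4:**
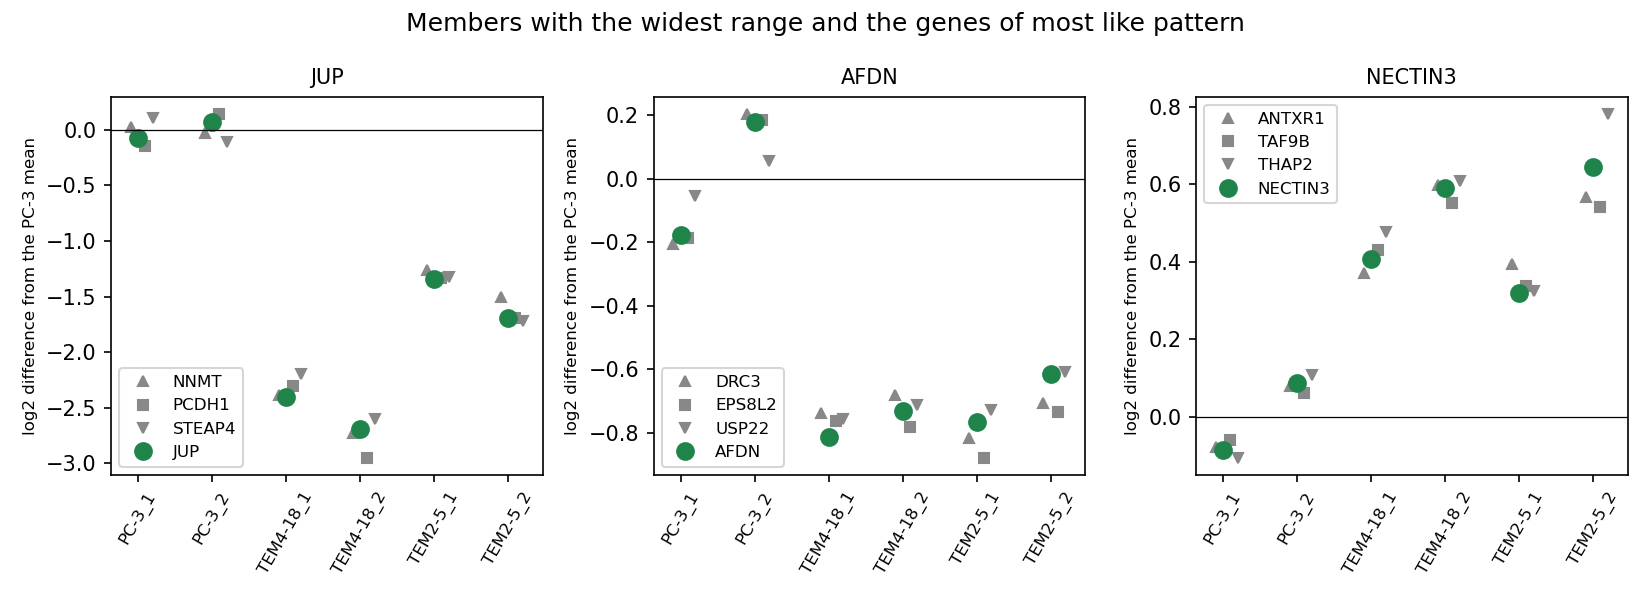
Log2 difference from the PC-3 mean (vertical axes, scaled to each panel) on each of the 6 arrays (horizontal axes) for JUP, AFDN and NECTIN3 and the 3 genes closest to each. Points are single arrays; JUP and its 3 neighbours are lowest on the TEM4-18 arrays, and AFDN and NECTIN3 show similar values in both TEM lines.

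Of the cadherins that these catenins bind, those of epithelia fell furthest. Of 6 listed cadherins 5 were tested: 1 was higher and 2 were lower in TEM4-18, and 2 were higher and 2 lower in TEM2-5. Their medians were -0.24 and -0.01. Over all genes tested, 29.3% were called in TEM4-18 and 19% in TEM2-5. CDH1 (E-cadherin) had mean signals of 14772, 41.8 and 2499 in PC-3, TEM4-18 and TEM2-5, and CDH3 (P-cadherin) of 6583, 22.7 and 615. CDH6 (K-cadherin) rose from a mean of 163 to 933 and 414, by 2.19 in TEM4-18 (SE 0.25, limma adjusted p = 0.000113) and 1.12 in TEM2-5 (limma adjusted p = 0.0126). The PC-3 mean of CDH6 lay below the filter on dim probe sets, which CDH6 passed through its TEM signals, so these sizes are uncertain. Over the alternative processings the CDH6 difference ran from 1.62 to 2.51 in TEM4-18 and from 0.75 to 1.34 in TEM2-5. The TEM2-5 value was not called without either TEM2-5 array. CDH11 was the other cadherin called higher in TEM2-5, by 0.44 (limma adjusted p = 0.00277). CDH11 differed by 0.07 in TEM4-18 and was not called there (limma adjusted p = 0.56). With averaged probe sets it was called higher in TEM4-18 (0.62, limma adjusted p = 0.000544). Without the trend its TEM2-5 call was lost (limma adjusted p = 0.0994). CDH2 (N-cadherin), which binds the same catenins, differed by -0.24 and -0.01 and was not called (limma adjusted p = 0.217 and 0.973).

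Of 5 further catenin-family genes 4 were tested, and limma called 0 in either TEM line, with 0 in TEM4-18 and 1 in TEM2-5 at an unadjusted p under 0.05. Of 10 further nectin and nectin-like genes 4 were tested, and limma called 0 in either line, with 2 and 2 lower at an unadjusted p under 0.05. Their medians were 0.04 and 0.28 for the catenins and -0.42 and -0.48 for the nectins. The called share of all genes tested was 29.3% in TEM4-18 and 19% in TEM2-5.

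Of 21 linker and scaffold genes of the junction 20 were tested. In TEM4-18, 5 were higher and 7 lower, and in TEM2-5, 3 were higher and 7 lower, with medians of -0.14 and -0.03. Without the trend, the counts of 12 and 10 became 6 and 4. The called share of all genes, for this list and those that follow, was 29.3% in TEM4-18 and 19% in TEM2-5. SORBS2, an adaptor that binds vinculin, fell from a mean of 692 to 103 in TEM4-18 and 166 in TEM2-5, by 2.26 (SE 0.34, limma adjusted p = 0.000715) and 1.77 (limma adjusted p = 0.00564). Both TEM means of SORBS2 lay below the filter on dim probe sets, which SORBS2 passed through its PC-3 signal, so these sizes are uncertain. Over the alternative processings the SORBS2 difference ran from -2.74 to -0.85 in TEM4-18 and from -2.06 to -0.75 in TEM2-5. CAMSAP3, which holds microtubule minus ends at the junction, fell from 1348 to 318 and 519, by 1.92 (limma adjusted p = 7.77e-05) and 1.29 (limma adjusted p = 0.0021). PLEKHA7, the protein that ties p120-catenin to CAMSAP3 and to afadin, fell from 1139 to 407 and 536, by 1.38 (limma adjusted p = 0.00127) and 1.03 (limma adjusted p = 0.0114). The PLEKHA7 and SORBS2 calls in TEM2-5 were lost without the first PC-3 array, with -0.92 (limma adjusted p = 0.0727) and -1.67 (limma adjusted p = 0.0533), that of PLEKHA7 also without the second TEM2-5 array (-0.80, limma adjusted p = 0.0957), and the averaged SORBS2 probe sets gave -0.85 and -0.75 with no call. The TEM2-5 count of 10 was 6 without either PC-3 array and 5 without the second TEM2-5 array.

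A list of 18 regulators that act on junctions held mostly kinases, phosphatases, GTPases and exchange factors, and also others such as CBLL1 and IQGAP1. In TEM4-18, 7 were higher and 1 lower, and in TEM2-5, 5 were higher and 1 lower, with medians of -0.01 and 0.06. Without the trend, the counts of 8 and 6 became 3 and 2. SRC, the tyrosine kinase that phosphorylates catenins and cadherins, rose from a mean of 2771 to 7124 and 5531, by 1.34 (limma adjusted p = 8.08e-06) and 0.98 (limma adjusted p = 0.00018). PTPRM, a receptor phosphatase that binds cadherin complexes, rose by 0.91 and 0.65. PTPRF, a receptor phosphatase that binds β-catenin and plakoglobin, fell by 0.70 (limma adjusted p = 0.00777) and 0.58 (limma adjusted p = 0.03). PTPRF was not called in either line without the first PC-3 array (-0.45 and -0.32, limma adjusted p = 0.0531 and 0.182), nor in TEM4-18 without the first TEM4-18 array (-0.58, limma adjusted p = 0.0588), nor in TEM2-5 without either TEM2-5 array (-0.47 and -0.70, limma adjusted p = 0.182 and 0.0582). The TEM4-18 count of 8 was 5 and 4 without the first and the second PC-3 array and 4 and 5 without the first and the second TEM4-18 array. The TEM2-5 count of 6 was 3 without the second PC-3 array and 2 and 3 without the first and the second TEM2-5 array.

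Of 14 genes for nuclear and cytoplasmic partners of β-catenin 13 were tested. In each TEM line 3 were higher and 1 lower, with medians of 0.28 and 0.22. Without the trend, the TEM2-5 count of 4 became 2. CTNNBIP1, the inhibitor that keeps β-catenin off TCF factors, rose from a mean of 1356 to 3260 and 2339, by 1.23 (limma adjusted p = 6.06e-05) and 0.76 (limma adjusted p = 0.0027). GSK3B, a kinase of the β-catenin destruction complex, rose from 8173 to 12980 and 12210, by 0.66 and 0.57 (limma adjusted p = 0.000157 and 0.000829). TCF7L2, a DNA-binding partner of β-catenin, fell from 7672 to 4627 and 5511, by 0.72 and 0.48 (limma adjusted p = 0.00306 and 0.0383). Without the trend TCF7L2 was called in neither line (limma adjusted p = 0.058 and 0.188). In TEM2-5 it was also not called without a filter (limma adjusted p = 0.0828) or with averaged probe sets (-0.52, limma adjusted p = 0.11). The TEM2-5 value of TCF7L2 was not called without either PC-3 array (-0.38 and -0.58, limma adjusted p = 0.185 and 0.0546) or the second TEM2-5 array (-0.29, limma adjusted p = 0.264), and without each of these arrays the TEM2-5 count of 4 was 2.

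Of 11 genes often used as targets of β-catenin 9 were tested. In TEM4-18, 2 were higher and 3 lower, and in TEM2-5, 2 were higher and 4 lower, with medians of 0.22 and -0.33. Without the trend, the TEM4-18 count of 5 became 3. LGR5, a receptor for R-spondins, read 6.34 and 108 in PC-3, 2059 and 2288 in TEM4-18, and 737 and 777 in TEM2-5. It rose in both (limma adjusted p = 1.42e-05 and 0.00046). Its PC-3 signals lay below the filter of 174, and its log2 difference ran from 3.20 to 6.26 in TEM4-18 and from 1.89 to 4.74 in TEM2-5 over the alternatives, so no single size is given. RNF43, the ubiquitin ligase that removes Wnt receptors, fell from 860 to 201 and 410, by 1.86 and 0.98 (limma adjusted p = 0.00037 and 0.0245). NKD2, an inhibitor of Wnt signalling, was called lower in TEM2-5 (by a log2 difference of -1.13, limma adjusted p = 0.0448). Its TEM2-5 mean of 168 lay below the filter, so this size is uncertain. The RNF43 call in TEM2-5 was lost without any single PC-3 or TEM2-5 array (limma adjusted p from 0.0705 to 0.137), and that of NKD2 without any single array (limma adjusted p from 0.0566 to 0.213). The TEM2-5 count of 6 was 3 without the first PC-3 array and 2 without the second or without either TEM2-5 array, and the TEM4-18 count of 5 was 3 without the second PC-3 array.

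**Figure D5:**
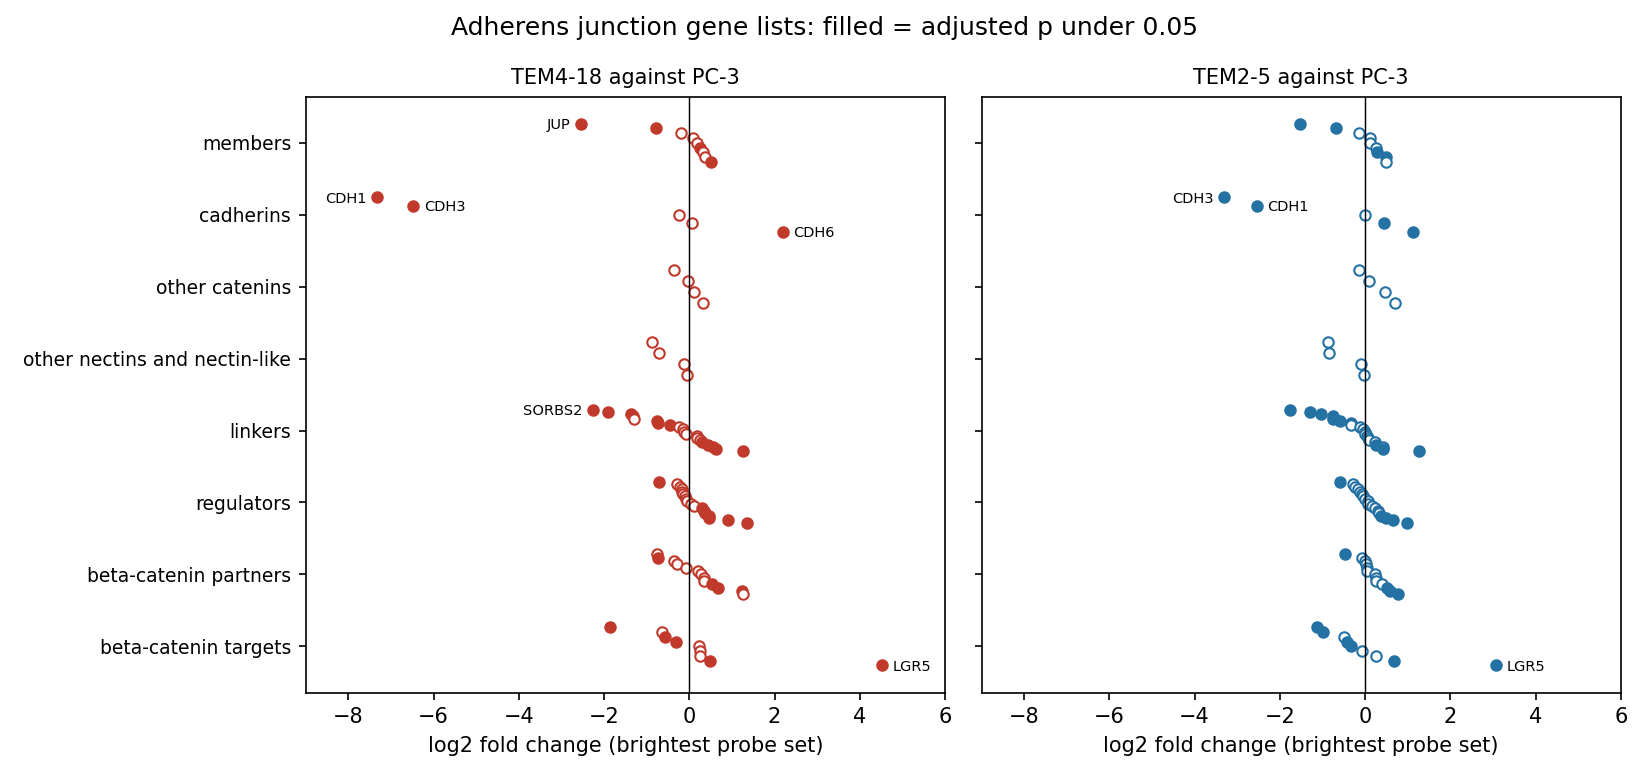
Log2 fold change against PC-3 (horizontal axes) of each tested gene, by list, in TEM4-18 (left) and TEM2-5 (right); each point is the brightest probe set of a gene and filled points have an adjusted p under 0.05. CDH1 and CDH3 lie far to the left of all the measured catenins and nectins, LGR5 lies far to the right, and genes beyond 2 log2 units are labelled.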

How the data were processed

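Total RNA of 3 cell lines was measured on 6 one-colour expression arrays. The authors deposited a linear intensity for each probe set. The submitters' processing notes name MAS5, without a version. Their 2% trimmed mean was 1500.17 to 1500.18 on every array, so they were not normalized again. Scans and detection calls were not used here. Array depth is limited by the number of arrays, 2 per line.

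The platform annotation, which can be old, gave 41097 of 54675 probe sets one symbol, 1801 several and 11777 none. A RefSeq gene table (GRCh38.p14) changed 0 symbols and left 54 unmatched. Replicate numbers follow the titles, although 1 TEM2-5 source name gives another number.

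Intensities were put on a log2 scale after adding 51.8, their 20th percentile, and filtered at a mean above 174, the 40th percentile of probe set means, which kept 32768 probe sets and 13621 genes. The 3 line means were fitted to all 6 arrays with limma 3.58.1 (lmFit, eBayes with trend) in R 4.3.3, and p-values were adjusted by Benjamini-Hochberg. Tables used Python 3.11.15. The scripts were tested on simulated data.

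All members are named, as are at most 3 called genes with the largest change per list. CDH2 and CDH11 are named beside these. Also named are the 3 nearest patterns to each of the 3 members of widest range, and 5 tested neighbours on each side of CTNNA1. The members and lists were chosen with earlier results of these data known. Alternatives covered the pseudocount, the filter, quantile normalization, no trend, averaged probe sets, a replicate block and leaving out each array.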

Additional observations from a re-analysis of the deposited data

Results flagged for a closer look

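JUP was the 1 gene of the set whose changes from PC-3 differed between the isolates by a test of the difference itself. The log2 difference of TEM4-18 against TEM2-5 was -1.03 (SE 0.15, limma adjusted p = 0.00642), with the 2 TEM4-18 arrays at 1186 and 961 and the 2 TEM2-5 arrays at 2533 and 1966. Fewer cells with the transcript and less transcript per cell cannot be told apart.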

How the results depend on the processing

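No called change of a catenin or nectin changed sign under any alternative, but some differences that were not called did, and many calls of under 1 log2 unit rested on single arrays. With averaged probe sets NECTIN1 went from 0.32 to -0.22 in TEM4-18 and from 0.49 to -0.15 in TEM2-5. The count of called genes in TEM4-18 was 4. It fell to 1 with the probe sets of a gene averaged and to 2 without the trend, and was 3 to 4 with single arrays left out. In TEM2-5 the 4 became 1 without the trend and 1 to 4 with single arrays left out, and in TEM4-18 against TEM2-5 the 1 became 0 without the trend and 0 to 1. Over all probe sets, the 8396, 5325 and 584 calls of the 3 comparisons became 5360, 2320 and 125 without the trend, and 5980 to 7747, 2825 to 5135 and 218 to 550 with single arrays left out. Without a filter the third was 300. Averaging probe sets gives no such count. It turned the sign of RAPGEF2 (-0.0823), BTRC (-0.045), USP22 (0.0612) and ANTXR1 (-0.50) in TEM4-18 and of KRT19 (0.069) and ANTXR1 (-0.33) in TEM2-5; the cause was not tested.

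Deviations of same-numbered arrays were weakly and positively correlated between lines, at 0.062, 0.080 and 0.098. Replicate 1 had the higher median signal in each line: 317 against 282 in PC-3, 296 against 267 in TEM4-18 and 310 against 281 in TEM2-5. What the replicate numbers stand for is not given in the labels, and the main fit left them out. With the replicate block 4, 4 and 1 genes of the set were called. Over all probe sets it gave 9445, 6429 and 874 calls, more than the 8396, 5325 and 584 without it.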
